A study of Homo sapiens with 16 samples.

Results

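The data cover 10 genes of the secretory epithelium and its transcriptional regulators, followed in A549, a human cell line established from a lung adenocarcinoma, while TGF-beta drove an epithelial to mesenchymal transition (EMT). They were 3 secreted or secretory-pathway proteins (AGR2, AGR3 and SLPI), 3 mucins (MUC1, MUC5AC and MUC5B) and 4 transcription factors (SPDEF, FOXA1, FOXA2 and FOXA3). The genes were selected by symbol, with earlier results of these data known. Each symbol stood on 1 line of the tables, and the genes made up 10 of 57773. RNA was measured by sequencing at 0, 6, 12, 24, 36, 48, 72 and 96 h, with 2 libraries at each time, numbered replicate 1 and replicate 2 in the labels, so 16 libraries were used. The labels give the same cell line and the same TGF-beta induction for all 8 times, and name no dose, no additional genotype and no untreated culture at a later time. The effect of TGF-beta and the effect of time in culture therefore cannot be told apart. Whether the 2 libraries of a time were grown as separate cultures is not in the labels, and p-values rest on a spread between libraries that may be technical. In bulk RNA, fewer cells that express a gene and less RNA per cell cannot be told apart.

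Secretory cells of the airway epithelium release gel-forming mucins, chiefly MUC5AC and MUC5B, which are large disulfide-linked glycoproteins folded in the endoplasmic reticulum. AGR2 and its neighbour AGR3 are members of the protein disulfide isomerase family, and AGR2 is needed in mice for the production of intestinal mucin. SLPI is a secreted inhibitor of neutrophil elastase, and MUC1 is a mucin anchored in the cell membrane. SPDEF is an ETS factor that drives goblet cell differentiation in mice, and FOXA1, FOXA2 and FOXA3 are forkhead factors that bind closed chromatin in endodermal epithelia. In the lung of mice FOXA2 restrains goblet cell differentiation, whereas FOXA3 promotes it.

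Promoter windows from RefSeq (build GRCh38.p14, 250 bases before to 50 bases after the start) were available for 6 of the 10 genes: AGR2, AGR3, SPDEF, MUC1, FOXA1 and FOXA3. The parts that overlap no annotated exon are shown for 4 of them, namely 3 genes with a later level of at most 7.28% of their own 0 h library from 24 h on (AGR2, AGR3 and SPDEF) and the mucin MUC1, which did not pass the test at any time. Capitals mark forkhead letters (TGTTTAC or TATTTAC, and likewise TGTTTGC or TATTTGC, on either strand) or the E-box letters CAGGTG on either strand, the sequence recognised by the EMT factors SNAI1, SNAI2 and ZEB1.
AGR2, minus strand of chr7:16805081-16805249, 250 to 82 bases before the start: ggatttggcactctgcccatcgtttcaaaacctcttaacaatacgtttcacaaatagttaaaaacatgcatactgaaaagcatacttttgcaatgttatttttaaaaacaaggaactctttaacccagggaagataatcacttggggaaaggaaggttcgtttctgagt
AGR3, minus strand of chr7:16881988-16882233, 250 to 5 bases before the start: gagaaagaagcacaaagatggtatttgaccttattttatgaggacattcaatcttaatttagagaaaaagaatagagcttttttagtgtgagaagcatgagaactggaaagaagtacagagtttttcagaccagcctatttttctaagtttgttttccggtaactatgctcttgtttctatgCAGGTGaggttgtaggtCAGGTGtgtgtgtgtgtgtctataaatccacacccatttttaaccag
SPDEF, minus strand of chr6:34556334-34556579, 250 to 5 bases before the start: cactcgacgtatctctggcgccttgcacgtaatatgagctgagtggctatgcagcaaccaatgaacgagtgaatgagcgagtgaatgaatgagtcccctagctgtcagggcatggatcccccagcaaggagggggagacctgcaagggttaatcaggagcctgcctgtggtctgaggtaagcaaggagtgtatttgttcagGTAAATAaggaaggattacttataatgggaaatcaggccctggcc
MUC1, minus strand of chr1:155192917-155193165, 250 to 2 bases before the first of 2 listed starts: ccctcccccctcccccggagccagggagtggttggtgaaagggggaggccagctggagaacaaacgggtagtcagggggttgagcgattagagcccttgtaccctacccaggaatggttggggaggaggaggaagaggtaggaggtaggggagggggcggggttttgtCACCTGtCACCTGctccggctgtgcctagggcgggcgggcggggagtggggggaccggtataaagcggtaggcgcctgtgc
The printed AGR2 run held none of these letters, and the only match in its whole window was an E-box 45 bases after the start. AGR3 held E-boxes 68 and 51 bases before its start, and MUC1 held them 82 and 75 bases before its start on the opposite strand. SPDEF held the forkhead letters TATTTAC on the opposite strand, 49 bases before its start. Of the windows not printed, FOXA1 held TGTTTGC on the opposite strand 235 bases and an E-box 122 bases before its start. In all, 2 of 6 windows held forkhead letters and 4 of 6 held an E-box, against 12.1% and 20.6% of 35116 windows in the whole table. The letters TATAAA, searched on both strands, were in 3 of 6 windows (AGR3, MUC1 and FOXA3), against 11.5% of all windows. The forkhead, E-box and TATAAA letters do not overlap one another in sequence, and a match describes the letters only.

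On the same assembly (GRCh38, GENCODE 29 annotation) 4 of the genes lie in neighbouring pairs. AGR2 (chr7:16791811-16833433) and AGR3 (chr7:16859405-16881987) lie on the minus strand, 25971 bases apart, and the RefSeq start of AGR2 lies inside the longer annotated gene. MUC5AC (chr11:1157953-1201138) and MUC5B (chr11:1223066-1262172) lie on the plus strand, 21927 bases apart. MUC1 lies at chr1:155185824-155192916, SPDEF at chr6:34537802-34556333, FOXA1 at chr14:37589984-37596059, FOXA2 at chr20:22581005-22585455 and SLPI at chr20:45252239-45254564, all on the minus strand, and FOXA3 at chr19:45863989-45873797 on the plus strand.

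Levels are TPM, which are corrected for gene length and scaled to the same total in each library, so levels can be set side by side between genes. Because TPM keep no read number, the depth is unknown and counting intervals cannot be given. Between 29278 and 31187 genes were listed at 0 in 14 of the libraries, 36116 in replicate 2 at 36 h and 36294 in replicate 2 at 48 h, and 6 abundant small RNAs took 42.5% to 64.1% of the TPM. Fold changes are differences of log2(TPM + 1), a scale that understates the change of low genes, and called genes are those with a limma p below 0.05 after Benjamini-Hochberg adjustment over the 16967 genes that reached 1 TPM in at least 2 libraries. On this scale the medians of all tested genes at 6, 12, 24, 36, 48, 72 and 96 h were -0.37, 0.03, -0.15, -0.16, -0.46, -0.16 and -0.20 relative to 0 h, and fold changes are to be read relative to it. TMM scaling brought these medians to between -0.04 and 0.03. The cells carried the keratins of simple epithelium at every time, with 659 to 2734 TPM of KRT18 and 537 to 1962 TPM of KRT8. Of the alveolar type 2 markers, the surfactant protein genes were at most 0.75 TPM (SFTPD), whereas LPCAT1 stood at 12.8 to 54.7 TPM and ABCA3 at 4.26 to 12.7 TPM. Among leukocyte markers PTPRC was at most 0.31 TPM, CD14 at most 1.82 TPM and CD68, a lysosomal protein, at 3.07 to 8.41 TPM in all 16 libraries. CDH5, the highest of the 4 listed endothelial markers, reached 0.18 TPM. Of 5 genes known to respond to TGF-beta, 3 were called higher at 24 to 96 h than at 0 to 12 h (FN1, TGFBI and CDH2), with FN1 2.22 ± 0.30 (SE) higher on the log2 scale (limma adjusted p = 0.000854).

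Of the 10 genes, 9 entered the tests and AGR3 did not. SPDEF, MUC5B and MUC5AC reached 1 TPM in 4, 3 and 5 libraries, all of them at 0 to 24 h, so these genes entered only through the times at which they were high, and their being called lower later follows in part from that. SLPI reached 1 TPM in 9 libraries, all of them at 0 to 36 h, and was at most 0.75 TPM from 48 h on. Its being called lower from 48 h on therefore also follows in part from its entry through the earlier times. MUC1 reached 1 TPM in 3 libraries and FOXA3 in 2. Counts over the 9 tested genes are therefore descriptions.

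AGR2 was the most abundant of the 10 genes at 0 h, with 65.6 and 166 TPM (mean 116 ± 70.9, SD, n = 2). In the replicate 1 libraries it stood at 65.6, 131, 23.3, 1.98, 1.15, 0.72, 0.5 and 0.74 TPM from 0 to 96 h. The replicate 2 libraries held 166, 125, 63.6, 5.94, 2.15, 3.12, 1.67 and 5.46 TPM. Both 6 h libraries lay between the 0 h libraries, and from 12 h on both libraries of each time lay below both 0 h libraries. The mean level was 37.5% of the 0 h mean at 12 h, 3.42% at 24 h and 0.937% at 72 h.

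AGR2 was not called at 6 h (log2 fold change 0.29, 95% interval -1.23 to 1.81) or at 12 h (-1.41, -2.93 to 0.11). AGR2 fell at 24 h against 0 h, by 4.54 ± 0.70 (SE) on the log2 scale (limma adjusted p = 0.0101). The later fold changes against 0 h lay between -5.72 at 72 h and -4.98 at 96 h, with limma adjusted p from 0.00181 to 0.00539. These comparisons share the same 0 h libraries. Without 0 h replicate 2, AGR2 was called at 72 h and at no other time relative to 0 h, the 24 h call was also lost without either 24 h library, and the 36 h call without 36 h replicate 2. Between 24 h and 6 h the difference was -4.83 ± 0.70 (limma adjusted p = 0.101), which passed the threshold once replicate number was in the model (limma adjusted p = 0.000126) and without either 96 h library.

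AGR3, which shares the thioredoxin-like fold of AGR2, was listed at 0.09 TPM in replicate 1 and 0.32 TPM in replicate 2 at 0 h, and at 0 and 0.23 TPM at 6 h. It was listed at 0 in all 12 libraries from 12 h on. It did not reach 1 TPM in any library, and in the fit without a filter the F test over the course gave a limma adjusted p of 0.656. A fold change is not given, since the later libraries are listed at 0. AGR2 and AGR3 are related in sequence, and how reads were divided between them was not tested.

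SLPI, the secreted protease inhibitor, stood at 6.97, 25.7, 5.09, 1.87, 0.96, 0.75, 0 and 0 TPM in the replicate 1 libraries from 0 to 96 h. In the replicate 2 libraries it stood at 23.2, 19.2, 17.7, 9.59, 1.28, 0, 0.16 and 0.56 TPM. The 6, 12 and 24 h libraries overlapped the 0 h libraries, and from 36 h on every library lay below both 0 h libraries. SLPI was the last of the 5 strongly changed genes to leave the range of 0 h, and the mean at 24 h was still 38% of that at 0 h. The log2 fold change was -1.33 ± 0.67 at 24 h (limma adjusted p = 0.518) and -2.72 ± 0.67 at 36 h (limma adjusted p = 0.0556, and 0.0123 with replicate number in the model). SLPI fell at 48 h (-3.39 ± 0.67, limma adjusted p = 0.015), 72 h (-3.69, limma adjusted p = 0.0113) and 96 h (-3.47, limma adjusted p = 0.0198) against 0 h. The 96 h call was lost with TMM scaling (limma adjusted p = 0.0516). The 48 h call was also lost without either 48 h library, the 72 h call without 72 h replicate 1 and the 96 h call without 96 h replicate 1. SLPI was not called against 0 h without 0 h replicate 2.

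**Figure D1:**
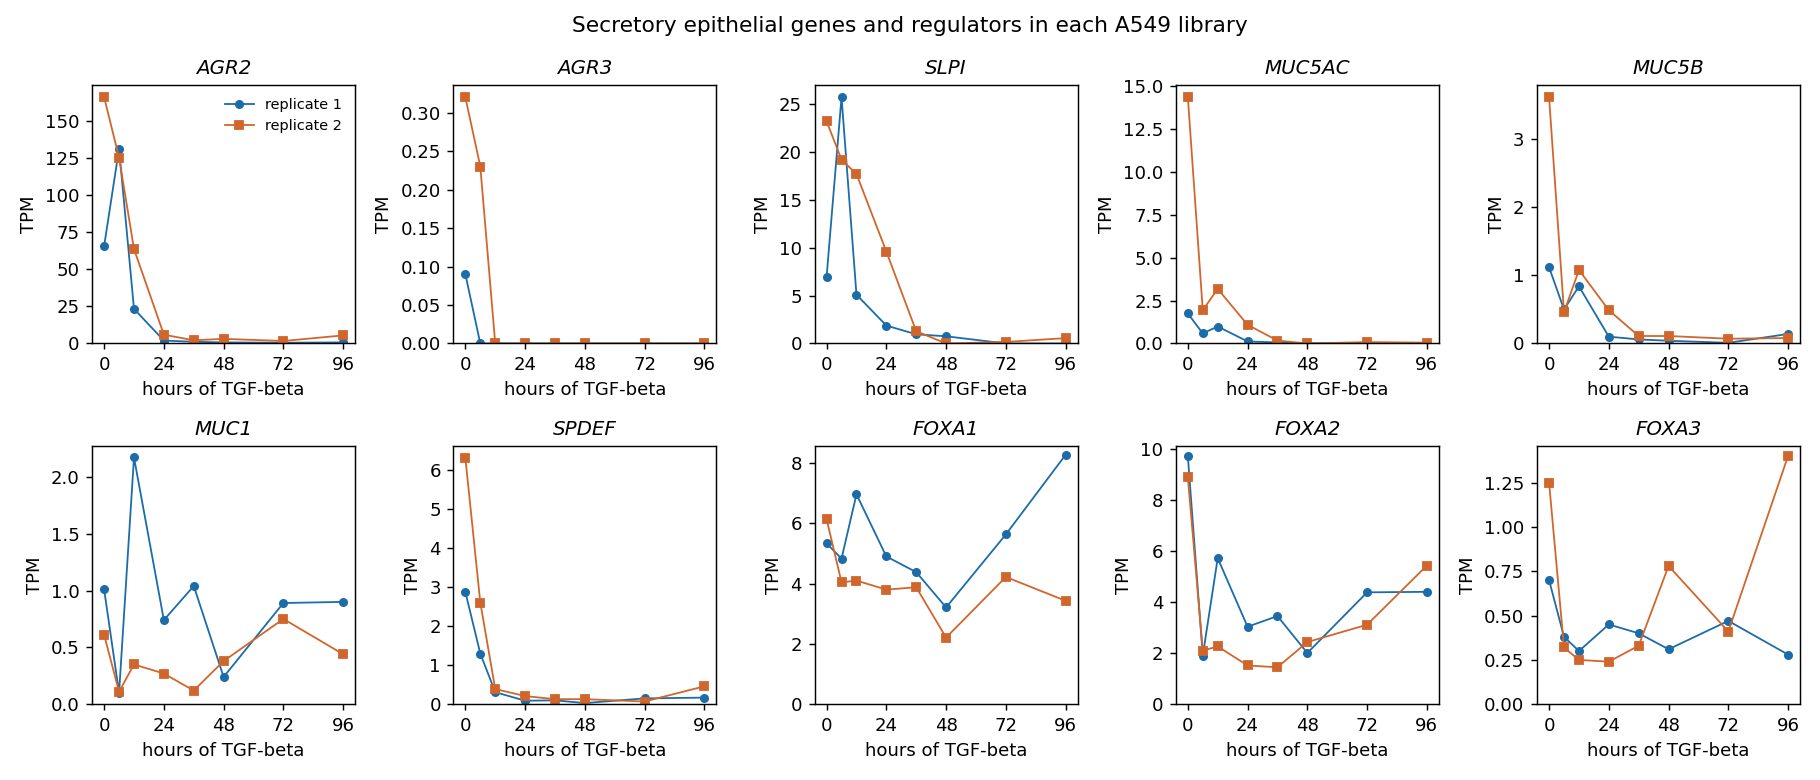
TPM (vertical axes, linear, one scale per panel) of the 10 genes against hours (horizontal axes) in the 16 libraries, with replicate 1 as blue circles and replicate 2 as orange squares, each point 1 library. AGR2 is at most 5.94 TPM from 24 h on and SPDEF at most 0.46 TPM, whereas FOXA1 stays between 2.21 and 8.27 TPM in all 16 libraries.

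The gel-forming mucin MUC5AC stood at 1.75, 0.59, 0.99, 0.12, 0.06, 0.01, 0 and 0.01 TPM in the replicate 1 libraries from 0 to 96 h. Its replicate 2 values were 14.4, 1.94, 3.18, 1.09, 0.17, 0, 0.08 and 0.05 TPM. The 0 h libraries differed more for MUC5AC than for any other of the 10 genes, by 2.48 on the log2 scale. From 24 h on, every library lay below both 0 h libraries. MUC5AC fell at 48 h (log2 fold change -2.69 ± 0.63, limma adjusted p = 0.0269) and 72 h (-2.64 ± 0.63, limma adjusted p = 0.0456) against 0 h, and the 72 h call was lost with TMM scaling (limma adjusted p = 0.0565). The 72 h call held in 5 of 16 omissions of a single library, being lost without 0 h replicate 2 or any library of 6, 24, 36, 48 or 72 h (limma adjusted p up to 0.443). The 48 h call was lost without 0 h replicate 2 or either 48 h library (limma adjusted p up to 0.244). At 24, 36 and 96 h the limma adjusted p was 0.161, 0.0576 and 0.0545, and with replicate number in the model it was 0.0306, 0.00773 and 0.00633, past the threshold at each of these times.

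The second gel-forming mucin, MUC5B, stood at 1.12, 0.5, 0.84, 0.1, 0.06, 0.04, 0.01 and 0.14 TPM in the replicate 1 libraries from 0 to 96 h. Its replicate 2 values were 3.62, 0.46, 1.08, 0.49, 0.11, 0.11, 0.07 and 0.08 TPM. Both libraries of every later time lay below both 0 h libraries, and both series had more MUC5B at 12 h than at 6 h, as they did for MUC5AC. In replicate 1 these levels were below 1 TPM for both mucins. The TMM factors of its libraries were 0.730 at 6 h and 1.542 at 12 h. On TMM-scaled TPM both mucins were therefore lower at 12 h than at 6 h in replicate 1. The difference between 12 and 6 h was not tested. MUC5B fell at 36, 48, 72 and 96 h against 0 h, by 1.50 to 1.59 on the log2 scale, with limma adjusted p from 0.0179 to 0.032. The 96 h call was lost with a pseudocount of 0.1 (limma adjusted p = 0.0592), and it held in 9 of 16 omissions of a single library. The 36 and 72 h calls were lost without either library of their own time, and the 48 h call without 48 h replicate 1. At 24 h the fold change was -1.29 ± 0.32 (limma adjusted p = 0.0771, and 0.0274 with replicate number in the model). Neither mucin was called against 0 h without 0 h replicate 2. MUC5AC exceeded MUC5B 1.56-fold in the replicate 1 and 3.96-fold in the replicate 2 library at 0 h. At 96 h the ratio of MUC5AC to MUC5B was 0.0714 and 0.625, at levels at or below 0.14 TPM. MUC5AC and MUC5B share related repeats, and how reads were divided between them was not tested.

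The membrane mucin MUC1 stood at 1.01, 0.1, 2.17, 0.74, 1.04, 0.24, 0.89 and 0.9 TPM in the replicate 1 libraries from 0 to 96 h. In the replicate 2 libraries it stood at 0.61, 0.11, 0.35, 0.27, 0.12, 0.38, 0.75 and 0.44 TPM. Both libraries were below both 0 h libraries at 6 and 48 h only. MUC1 was not called at any time, and its log2 fold change at 96 h was -0.12 with a 95% interval of -0.96 to 0.72. At 6 h, where both libraries were lowest, it was -0.70 (-1.55 to 0.14, limma adjusted p = 0.396), beside a median of all genes of -0.37.

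SPDEF, the ETS factor of goblet cells, stood at 2.88, 1.3, 0.31, 0.09, 0.1, 0.03, 0.15 and 0.17 TPM in the replicate 1 libraries from 0 to 96 h. The replicate 2 libraries held 6.32, 2.61, 0.39, 0.21, 0.13, 0.13, 0.07 and 0.46 TPM. Every later library lay below both 0 h libraries. SPDEF was at 45.1% and 41.3% of its own 0 h library at 6 h and at 10.8% and 6.17% at 12 h. No other tested gene of the group was at so low a share at 12 h in either series, although AGR3 was listed at 0. SPDEF was the only one of the 10 genes called at 12 h against 0 h, with a log2 fold change of -1.98 ± 0.31 and a limma adjusted p of 0.0299. It stayed called at each later time, between -2.30 ± 0.31 at 48 h and -2.03 ± 0.31 at 96 h, with limma adjusted p from 0.00281 to 0.00801. The 12 h call rested on few libraries: it was lost without 0 h replicate 2, either 12 h library or either 24 h library, with limma adjusted p up to 0.443, and with a pseudocount of 0.1 (limma adjusted p = 0.0865). Without 0 h replicate 2, SPDEF was not called against 0 h at any time, and it was also lost at 24 h without either 24 h library, at 36 h without 36 h replicate 2 and at 96 h without 96 h replicate 1.

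FOXA2 stood at 9.73, 1.91, 5.73, 3.04, 3.46, 2.01, 4.39 and 4.41 TPM in the replicate 1 libraries from 0 to 96 h. Replicate 2 gave 8.91, 2.1, 2.27, 1.52, 1.45, 2.44, 3.12 and 5.44 TPM. All 14 later libraries lay below both 0 h libraries, and unlike AGR2, SLPI and the gel-forming mucins, FOXA2 was highest in the replicate 1 library at 0 h. The mean was 21.5% of the 0 h mean at 6 h, 24.5% at 24 h and 52.8% at 96 h. FOXA2 fell at 36 h (log2 fold change -1.64 ± 0.38, limma adjusted p = 0.0439) and 48 h (-1.68 ± 0.38, limma adjusted p = 0.0246) against 0 h, and the 36 h call was lost with a pseudocount of 0.1 (limma adjusted p = 0.0627). The 36 h call held in 4 of 16 omissions of a single library, being lost without any library of 0, 6, 24, 36, 48 or 72 h (limma adjusted p up to 0.378). The 48 h call was lost without any library of 0 or 48 h (limma adjusted p up to 0.19). At 24 h it was -1.69 ± 0.38 (limma adjusted p = 0.0539, and 0.0135 with replicate number in the model). At 6 h it was -1.78 ± 0.38, beside a median of all genes of -0.37. This was the largest 6 h difference of the 9 tested genes on the log2(TPM + 1) scale, which understates low genes. As a share of the 0 h mean, MUC1 (13%), MUC5AC (15.7%) and MUC5B (20.3%) were lower at 6 h than FOXA2. The limma adjusted p of FOXA2 at 6 h was 0.165. It passed the threshold (-1.36, limma adjusted p = 0.0294) only with TMM scaling and replicate number together. In that fit 0.542% of all genes were called lower at 6 h. At 96 h against 24 h, FOXA2 differed by 0.89 (95% interval 0.06 to 1.72) with a limma adjusted p of 0.958, so a return was not called. FOXA2 was not called against 0 h without 0 h replicate 2.

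FOXA1 stood at 5.33, 4.83, 6.96, 4.9, 4.38, 3.21, 5.63 and 8.27 TPM in the replicate 1 libraries from 0 to 96 h. Replicate 2 gave 6.14, 4.04, 4.1, 3.8, 3.88, 2.21, 4.22 and 3.43 TPM. It was not called at any time. The largest difference was -0.87 at 48 h (95% interval -1.63 to -0.11, limma adjusted p = 0.128), where the median of all genes was -0.46, and with TMM scaling it was -0.42. At 96 h the log2 fold change of FOXA1 was -0.07 (95% interval -0.83 to 0.69), and it was 0.15 with TMM scaling.

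FOXA3, the scarcest of the 3 forkhead factors, stood at 0.7 and 1.25 TPM at 0 h in replicates 1 and 2. In the 14 later libraries it lay between 0.24 and 1.4 TPM, and both libraries were below both 0 h libraries at 6, 12, 24, 36 and 72 h. Its 12 h mean was 28.2% of the 0 h mean, a log2 fold change of -0.62 (95% interval -1.27 to 0.03, limma adjusted p = 0.646). FOXA3 was not called at any time, and at 1 TPM or less the log2(TPM + 1) scale compresses its differences.

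**Figure D2:**
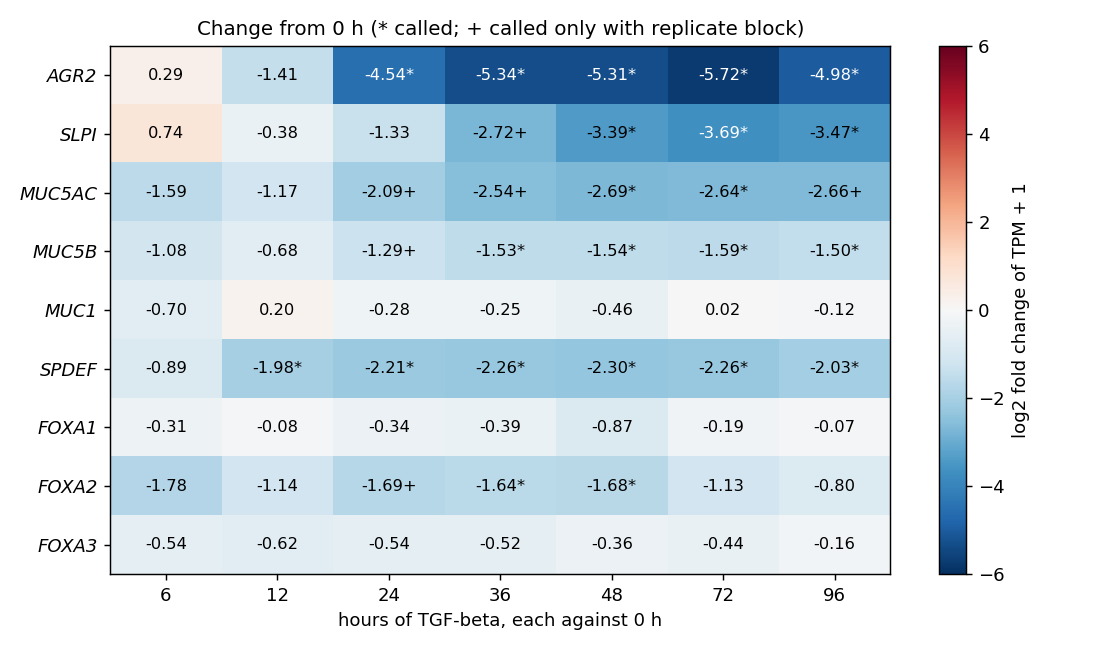
Heat map of the log2(TPM + 1) change against 0 h (colour, blue for lower) of the 9 tested genes (rows) at the 7 later times (columns), with an asterisk where limma called the gene and a plus where it did so only with replicate number in the model. SPDEF carries the first asterisk at 12 h, AGR2 joins at 24 h, and the rows of FOXA1, FOXA3 and MUC1 carry no mark.

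Against 0 h, none of the 9 tested genes was called by limma at 6 h, where 0.0177% of all tested genes were called lower. At 6 h 4 of the 9 had an unadjusted p below 0.05. The share of all genes at that unadjusted threshold is not given here, so this count has no background. Just 1 gene was called lower at 12 h (SPDEF), where 0.13% of all genes were, and 2 were called at 24 h (AGR2 and SPDEF), where 0.595% were. The count was 4 at 36 h (AGR2, SPDEF, MUC5B and FOXA2) against 1.33% of all genes. It was 6 at 48 h, with SLPI and MUC5AC added, against 6.8%. It was 5 at 72 h, without FOXA2, against 1.74%, and 4 at 96 h (AGR2, SPDEF, SLPI and MUC5B) against 1.26%. With replicate number in the model the count was 5 at 24 h, where 1.92% of all genes were then called lower, 6 at 36 h, where 3.15% were, and 5 at 96 h, where 3.31% were. Without 0 h replicate 2, the count was 0 at 12, 24, 36, 48 and 96 h and 1 (AGR2) at 72 h. Other single libraries also moved these counts by over 1.5 times. At 24 h the count was 4 without 0 h replicate 1 and 0 without either 24 h library, and at 36 h it was 2 without 36 h replicate 1 and 0 without 36 h replicate 2. It was 2 at 48 h without 48 h replicate 1, 3 without 48 h replicate 2, 2 at 72 h without 72 h replicate 1 and 3 without 72 h replicate 2. At 96 h it was 1 without 96 h replicate 1.

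Counted without a model, both libraries lay below both 0 h libraries for 6, 6, 8, 9, 9, 8 and 7 of the 10 genes at 6, 12, 24, 36, 48, 72 and 96 h. The same held for 61.8%, 16.1%, 37.1%, 33.2%, 62.3%, 41.5% and 31% of all tested genes. At 6 h the share of the members was therefore close to that of all genes. From 12 h on the member counts include AGR3, which was listed at 0 and is not among the tested genes. With 2 libraries on each side, the smallest two-sided p of an exact permutation test is 0.333, so none was run. The 9 tested genes had median log2 fold changes of -0.70, -0.68, -1.33, -1.64, -1.68, -1.59 and -1.50 at these 7 times.

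Over the whole course, the moderated F test of all 7 differences from 0 h called AGR2 (limma adjusted p = 0.00259), SPDEF (0.00957) and SLPI (0.0108), 3 of 9 tested genes, and it called 1.72% of all tested genes. The call of SLPI was lost in the fit without a filter (limma adjusted p = 0.0525) and without the 36 and 48 h libraries of replicate 2 (limma adjusted p = 0.0594). With replicate number in the model it called 6, adding MUC5AC (limma adjusted p = 0.023), MUC5B (0.0287) and FOXA2 (0.0377), and 6.13% of all tested genes. Without 0 h replicate 1 the F test called 5 of the 9.

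The genes were at different shares of their own 0 h level in the first day. At 12 h the mean as a share of the 0 h mean was 7.61% for SPDEF, 25.9% for MUC5AC, 37.5% for AGR2, 40.5% for MUC5B, 42.9% for FOXA2 and 75.5% for SLPI. At 24 h it was 3.26% for SPDEF, 3.42% for AGR2, 7.52% for MUC5AC, 12.4% for MUC5B, 24.5% for FOXA2 and 38% for SLPI. SPDEF was thus ahead of AGR2 at 12 h and level with it at 24 h, and by these means SLPI had the highest share of the 6 at both times. In replicate 1 alone MUC5B was higher at 12 h (75%, against 73% for SLPI) and FOXA2 at 24 h (31.2%, against 26.8% for SLPI). SPDEF had the lowest share of the tested genes at 12 h in both series. These shares are ratios of 2 means of 2 libraries, and the order was not tested. Limma called none of the 9 tested genes at 24 h against 6 h or at 96 h against 24 h. It called 0% of all genes lower in both comparisons. At an unadjusted p below 0.05 the counts were 3 and 2 of the 9. The share of all genes at that unadjusted threshold is not given here, so these counts have no background. With replicate number in the model AGR2 was called at 24 h against 6 h, where 0.13% of all genes were called lower. The 24 h against 6 h difference was -4.83 for AGR2, -1.33 for SPDEF and -2.07 for SLPI, and it was -0.50 for MUC5AC, -0.21 for MUC5B and 0.09 for FOXA2, which had already been low at 6 h. These differences stand beside a median of all genes of 0.24 for 24 h against 6 h (-0.02 with TMM scaling).

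**Figure D3:**
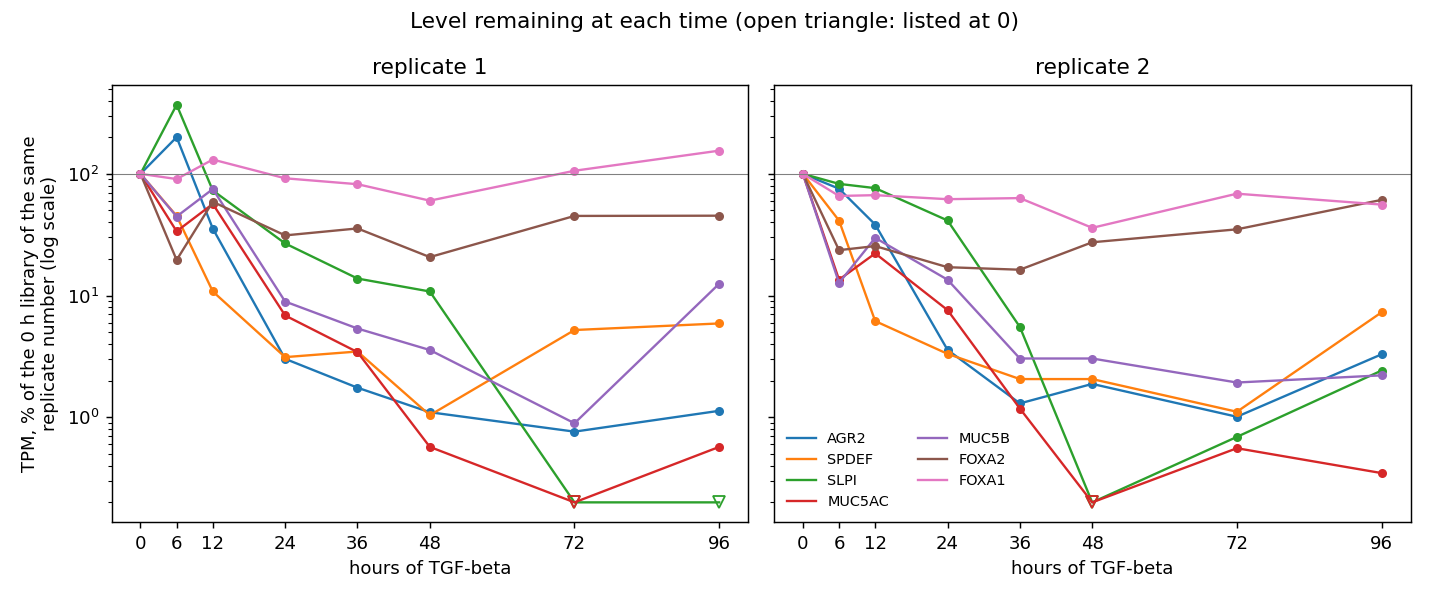
Level of AGR2, SPDEF, SLPI, MUC5AC, MUC5B and FOXA2, and of FOXA1, which was never called, as a percentage of the 0 h library with the same replicate number (vertical axis, log scale). The horizontal axis gives hours, by replicate, with open triangles at the bottom edge for libraries listed at 0. At 12 h SPDEF is at 10.8% and 6.17% while SLPI is at 73% and 76.3%, and AGR2 is at 3.02% and 3.58% at 24 h.

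To take the weight off the 0 h libraries, the mean of the 5 later times (24 to 96 h) was set against the mean of the 3 earlier times (0, 6 and 12 h) in the same fit. In the 10 later libraries AGR2 lay between 0.5 and 5.94 TPM (median 1.82), and in the 6 earlier ones between 23.3 and 166 TPM (median 95.5). AGR2 was the only one of the 9 tested genes whose later and earlier libraries did not overlap with the later ones lower, as was the case for 1.66% of all tested genes. The 9 tested genes included 5 that were called lower, AGR2, SLPI, MUC5AC, SPDEF and MUC5B. Limma called 7.86% of all genes lower and 2.34% higher (11.2% and 3.76% with replicate number in the model). The members were chosen with earlier results of these data known, so their count is a description. SPDEF and MUC5B reached 1 TPM in earlier libraries only, and MUC5AC in 1 later library (1.09 TPM, replicate 2 at 24 h). The log2 difference was -4.80 ± 0.36 for AGR2 (limma adjusted p = 2.71e-05) and -3.04 ± 0.34 for SLPI (limma adjusted p = 0.000297). It was -1.61 ± 0.33 for MUC5AC (limma adjusted p = 0.00896), -1.26 ± 0.16 for SPDEF (limma adjusted p = 0.000565) and -0.90 ± 0.16 for MUC5B (limma adjusted p = 0.00489). All 5 calls held without 0 h replicate 2, and MUC5AC alone was lost on leaving out a library, 6 h replicate 2.

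The 3 forkhead factors and MUC1 were not called in this comparison. The difference was -0.42 for FOXA2 (95% interval -0.85 to 0.01), -0.24 for FOXA1 (-0.63 to 0.15), -0.05 for MUC1 (-0.49 to 0.38) and -0.02 for FOXA3 (-0.36 to 0.32). At 6 h the mean was 21.5% of the 0 h mean for FOXA2, 20.3% for MUC5B and 15.7% for MUC5AC. For all 3 this comparison therefore sets low libraries on both sides, and the 2 mucins were called. At 96 h the share was 52.8% for FOXA2, 4.64% for MUC5B and 0.373% for MUC5AC. Why FOXA2 was not called was not tested. The median over the 9 tested genes was -0.90, and over all tested genes it was -0.11. The summed level of the 10 genes was 7.32 to 23.2 TPM in the later libraries and 45.7 to 231 TPM in the earlier ones, and AGR2 was the most abundant of them in each earlier library.

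**Figure D4:**
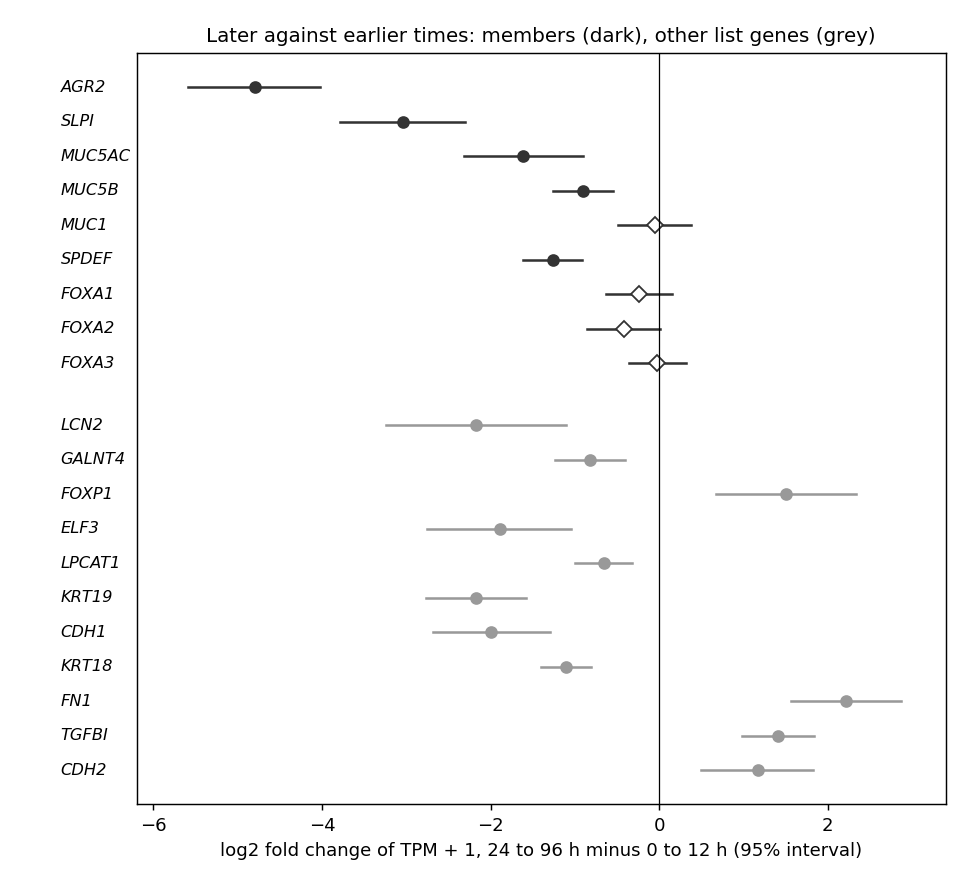
Difference in log2(TPM + 1) between 24 to 96 h and 0 to 12 h (horizontal axis) with 95% intervals for the 9 tested members (dark) and for genes of other lists (grey), filled where limma called the gene and open where it did not. AGR2 stands at -4.80, SLPI at -3.04, and the intervals of FOXA1, FOXA2, FOXA3 and MUC1 include 0.

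The 2 replicate series differed in the level of the secretory genes. Replicate 2 was higher than replicate 1 at 7 of 8 times for AGR2, SPDEF and MUC5AC and at 6 of 8 for SLPI and MUC5B. It was higher at 1 of 8 times for FOXA1, 2 for MUC1, 3 for FOXA2 and 3 for FOXA3. The share of all genes for these counts is not given here. The counts include levels near 0, such as MUC5AC (0 and 0.08 TPM) and MUC5B (0.01 and 0.07 TPM) at 72 h. At 0 h the difference was 1.33 for AGR2, 1.60 for SLPI and 2.48 for MUC5AC on the log2 scale, and the median of all genes was 0.05. From 6 to 96 h that median was 0.23, -0.51, -0.20, -0.31, 0.24, -0.12 and -0.52, so whole libraries also differed between the series. At 6 h AGR2 and SLPI stood at 200% and 369% of their own 0 h library in replicate 1, and at 75.5% and 82.7% in replicate 2. The difference between series was not tested.

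Genes with related roles were counted in the same comparison. Of 13 other mucins, 2 entered the tests (MUC12 and MUC13) and limma called neither at 24 to 96 h against 0 to 12 h (0 with an unadjusted p below 0.05). The highest was MUC13, a membrane mucin, at 0.97 to 2.96 TPM in the later and 1.17 to 5.74 TPM in the earlier libraries, with a log2 difference of -0.21 (95% interval -0.61 to 0.20). MUC17 and MUC21 were listed at 0 in all 16 libraries. Of 24 other airway secretory products, 5 entered the tests and 2 were called lower. LCN2, a secreted siderophore-binding protein, lay at 0 to 7.68 TPM in the later and 1.02 to 18.5 TPM in the earlier libraries and fell by 2.17 on the log2 scale (limma adjusted p = 0.016). TFF1, a small secreted trefoil peptide, was called at -0.64 (limma adjusted p = 0.046). It was chosen after its values were seen, and it reached 1 TPM in 2 libraries, both earlier ones (at most 0.75 TPM in the later and 2.36 TPM in the earlier libraries), so it entered the test only through the times at which it was high. CST3, a widely secreted protease inhibitor and the most abundant of this list, lay at 79.8 to 167 TPM in the later and 97.1 to 135 TPM in the earlier libraries, a difference of -0.04 (95% interval -0.32 to 0.24). The median over the list was -0.15.

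Of 25 genes for mucin glycosylation and secretory folding, 19 entered the tests and 1 was called, with a list median of -0.14. GALNT4, which starts O-linked glycan chains, lay at 1.93 to 4.5 TPM in the later and 3.22 to 11.2 TPM in the earlier libraries and fell by 0.82 (limma adjusted p = 0.0164). With replicate number in the model, GCNT1 (0.66, limma adjusted p = 0.0369) and ST3GAL1 (0.69, limma adjusted p = 0.049) were also called, both higher.

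Of 25 other regulators of airway and endodermal epithelium, 18 entered the tests, 2 were called lower and 1 higher, with a list median of -0.25. ELF3, an epithelial ETS factor, lay at 5.5 to 32.7 TPM in the later and 30.9 to 121 TPM in the earlier libraries and fell by 1.89 (limma adjusted p = 0.0104). TFCP2L1, an epithelial factor of the grainyhead family, was called at -0.63 (limma adjusted p = 0.00938), with 0.19 to 0.88 TPM in the later and 1.02 to 1.51 TPM in the earlier libraries. It was chosen after its values were seen, and it too entered the test only through the earlier libraries. FOXP1, a forkhead factor outside the FOXA subfamily, lay at 31.1 to 161 TPM in the later and 10.1 to 95.5 TPM in the earlier libraries and rose by 1.50 (limma adjusted p = 0.0278). EHF, an ETS factor like ELF3 and SPDEF, was at -0.80 ± 0.25 (limma adjusted p = 0.0648, and 0.0223 with replicate number in the model), and HNF4G was at -0.47 ± 0.17 (limma adjusted p = 0.0949, and 0.0155 with replicate number in the model). NKX2-1, a factor of distal lung epithelium, was at most 0.03 TPM in any library, and XBP1, a factor of the secretory stress response, differed by -0.06 (95% interval -0.64 to 0.52).

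Markers of cell types moved beside the secretory genes. Of 6 genes of simple epithelium, 5 entered the tests and 4 were called lower at 24 to 96 h against 0 to 12 h: KRT19 (-2.17), CDH1 (-1.99), KRT18 (-1.11) and KRT8 (-1.07), with limma adjusted p from 0.000395 to 0.00248, where KRT8 was chosen after its values were seen. The fifth, EPCAM, was at -0.63 ± 0.23 (limma adjusted p = 0.114, and 0.0189 with replicate number in the model). Their summed level was 1202 to 3383 TPM in the later and 3730 to 4779 TPM in the earlier libraries, ranges that did not overlap. Of 3 tested genes of alveolar type 2 cells 1 was called lower (LPCAT1, -0.66, limma adjusted p = 0.0191), and of 4 tested genes of ciliated cells 1 was called lower (TPPP3, -0.89, limma adjusted p = 0.00368). Of 2 tested genes of leukocytes, CD14 was called lower (-0.69, limma adjusted p = 0.00489), of 3 of fibroblasts LUM was called higher (0.59, limma adjusted p = 0.0339), and of 2 of basal cells limma called none (1 with an unadjusted p below 0.05). TPPP3, CD14 and LUM did not exceed 3.69 TPM in any library and were chosen after their values were seen. CD14 reached 1 TPM in 3 libraries, all earlier ones, and LUM in 5, all later ones, so both entered the test only through the times at which they were high. Limma called none of the 13 mitochondrial transcripts (0 with an unadjusted p below 0.05). The part of these genes in the results on the secretory genes was not tested.

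The genes whose change from 0 h was most like that of each strongly changed member were found over the 14 later libraries, by the mean absolute difference of their log2 changes, which share the 0 h libraries. For AGR2 they were ALDH3A1 (0.61), GPX2 (0.63) and CEACAM6 (1.42), so only ALDH3A1 and GPX2 came close. ALDH3A1 had 10.4 and 70.4 TPM at 96 h, against 373 and 806.5 TPM at 0 h, and GPX2 had 1.7 and 15.4 TPM at 96 h, against 69.1 and 227 TPM at 0 h. As with AGR2, replicate 2 was the higher library of ALDH3A1 and GPX2 at both times. For SLPI they were WISP2 (0.58), LCN2 (0.64) and CEACAM6 (0.65), and CEACAM6 had 0.26 and 0.5 TPM at 96 h, against 13.2 and 37.8 TPM at 0 h. For SPDEF they were CAMK2D (0.25), CYP4F12 (0.26) and ACSM3 (0.27). For MUC5AC they were C5 (0.31), ADORA2B (0.31) and KRT4 (0.33). For MUC5B they were ACSS1 (0.16), HILPDA (0.16) and TC2N (0.17), and for FOXA2 they were NR2F2 (0.21), SGK223 (0.22) and LIMD1 (0.23). Among the 9 tested members, the closest pairs by this measure were MUC1 and FOXA1 (0.30), FOXA1 and FOXA3 (0.41) and MUC1 and FOXA3 (0.42), the 3 genes that were never called. Genes that change little are close by this measure. These distances were near the genes' own mean absolute changes (0.39 to 0.50), so they do not show a shared pattern. Next came SPDEF and MUC5AC (0.51) and MUC5B and FOXA2 (0.52). The neighbours MUC5AC and MUC5B were 0.88 apart. The mean absolute change from 0 h over the 14 libraries was 3.94 for AGR2, 2.31 for SLPI, 2.20 for MUC5AC, 1.99 for SPDEF, 1.41 for FOXA2 and 1.31 for MUC5B, and it was 0.50 for FOXA3, 0.42 for FOXA1 and 0.39 for MUC1.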

How the data were processed

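RNA of A549 cells at 8 times was extracted with Trizol and made into Illumina TruSeq RNA libraries, per the labels' protocols. The authors deposited TPM per gene, 1 table per replicate number. The submitters' processing notes name Bowtie and RSEM and give no versions. Genome build and annotation release: not given in the sources used here. Tables were joined by Ensembl identifier, every value column was mapped to a library by time and replicate number, and 0 pairs of libraries were identical (highest correlation 0.989). Depth is unknown, so precision rests on the 2 libraries per time.

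Genes reaching 1 TPM in at least 2 of the 16 libraries were analysed as log2(TPM + 1) in limma 3.58.1 (R 4.3.3) with 1 mean per time, a mean trend, two-sided tests and Benjamini-Hochberg adjustment over 16967 genes. The spread was estimated over all times together. The procedure was tested on simulated data. Replicate number was an alternative term. Deviations from the time means of libraries with the same number were correlated above 0.1 for 28 of 28 pairs of times (lowest 0.128, median 0.438), so the numbers were taken to pair the libraries, from the data and not from the labels. Other alternatives were unweighted TMM scaling of the TPM, TPM rescaled without 6 small RNAs, a pseudocount of 0.1, no filter, omission of the 36 and 48 h libraries of replicate 2, and omission of each library. The filter was held in all but the alternative without it.

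All 10 members are named. Genes with a like pattern were the 3 nearest to each member whose mean absolute change was at least 1. From each other list up to 3 called genes per direction were named if they averaged 5 TPM or more in the higher period. MUC3A stood on 2 lines and was left out. The members and the lists were chosen with earlier results of these data known. Matplotlib 3.10.9 drew the figures.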

Additional observations from a re-analysis of the deposited data

How the results depend on the processing

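The number of members called depended on the processing in several comparisons. With replicate number in the model (the pairing of libraries by number), 5 members were called at 24 h against 0 h, 1 at 24 h against 6 h and 6 over the whole course. With TMM scaling and replicate number together, the counts were 1 at 6 h, 2 at 12 h and 5 at 24 h against 0 h, 2 at 24 h against 6 h and 6 over the whole course. A pseudocount of 0.1 left 0 at 12 h, and the fit without a filter left 2 at 96 h. Without the 36 and 48 h libraries of replicate 2 the counts were 0 at 12 h, 0 at 36 h and 2 at 48 h. Single calls against 0 h were also lost in the fit without a filter (SLPI at 96 h, MUC5AC at 48 and 72 h, MUC5B at 96 h, FOXA2 at 36 and 48 h) and without those 2 libraries (AGR2, SPDEF, MUC5B and FOXA2 at 36 h, SLPI, MUC5AC, MUC5B and FOXA2 at 48 h, SPDEF at 12 h, MUC5AC at 72 h and MUC5B at 96 h). Beyond the calls given beside the results, replicate number in the model changed no call of a member. Leaving out 1 library at a time gave 0 to 0 members at 6 h, 0 to 1 at 12 h, 0 to 4 at 24 h, 0 to 5 at 36 h, 0 to 6 at 48 h, 1 to 5 at 72 h and 0 to 5 at 96 h against 0 h. It gave 0 to 1 at 24 h against 6 h, 0 to 0 at 96 h against 24 h, 4 to 5 at 24 to 96 h against 0 to 12 h and 2 to 5 over the whole course. A time left with 1 library was assumed to vary like the others. The cause of these shifts was not tested, apart from the smaller number of libraries that an omission leaves. No called value turned its direction under any of these alternatives. Levels under 1 TPM are limited by an unknown depth. They include AGR3, most libraries of MUC1 and FOXA3, SPDEF from 12 h on and SLPI from 48 h on. They also include MUC5AC and MUC5B in replicate 1 from 6 h on and in both series after 24 h, and MUC5B in replicate 2 at 6 and 24 h. AGR2 in replicate 1 was under 1 TPM from 48 h on (0.72, 0.5 and 0.74 TPM), and SLPI in replicate 1 at 36 h (0.96 TPM).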
